A study of Mus musculus with 69 samples.

Results

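p53KO–emiRFP cells were compared with WT–emiRFP cells in mosaic gastruloids at 120 h. Gastruloids are aggregates of mouse embryonic stem cells that elongate and form derivatives of the germ layers along a head-to-tail axis, here after a pulse of the Wnt agonist CHIR between 48 and 72 h. The comparison takes 6 of the 69 bulk RNA sequencing libraries of the series, chosen by their labels and not by any measured value: 3 of p53KO–emiRFP cells sorted by FACS from WT + p53KO gastruloids and 3 of WT–emiRFP cells sorted from WT + WT gastruloids. All lines descend from the E14Tg2A stem cell line. WT–emiRFP cells carry H2B fused to the far-red protein emiRFP670 behind the CAG promoter, and p53KO–emiRFP cells are a single clone derived from them, with a frameshifting insertion in exon 4 of Trp53 made with CRISPR–Cas9. Both shared their gastruloids with WT–mCherry cells, which carry H2B–mCherry behind the EF1α promoter. WT + WT gastruloids were seeded with equal numbers of both clones, and WT + p53KO gastruloids with fewer p53KO–emiRFP than WT–mCherry cells. The 2 emiRFP populations therefore differed in genotype and also in the gastruloid they grew in, and with 1 clone a clonal difference and the loss of p53 cannot be told apart. WT–mCherry cells of the same gastruloids, 3 libraries beside p53KO and 3 beside WT cells, were measured in the same fit and are wild type in both by their labels. The purity of the sorted cells was not checked in the study.

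p53 is a transcription factor that is kept low by the ubiquitin ligase Mdm2 and activates genes of cell cycle arrest, apoptosis and DNA repair. In the tail end of the embryo, caudal epiblast cells and neuromesodermal progenitors are maintained by Wnt and FGF signals and by the T-box factor T. Some of them enter the presomitic mesoderm under Tbx6 and Msgn1, in which the Notch pathway and the Hes7 oscillator pace the formation of somites, while Hox genes are activated in the order of their position in each cluster.

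The 6 libraries had 48731535 to 54693751 counts, and the 12 libraries of 120 h had up to 64019780. Counts were divided by size factors, which gives the normalized counts below, and the edgeR quasi-likelihood test was fitted to the 12 libraries with p values adjusted by the Benjamini-Hochberg method over all tested genes. Replicates came from 3 separate experiments, and the p values measure the spread between them. The p53KO–emiRFP libraries had 25821 to 26577 genes with at least 1 count and the WT–emiRFP libraries 27020 to 27714. On the first principal component, with 81.7% of the variance, the p53KO–emiRFP libraries lay between -57.8 and -52.5 and the 9 other libraries between 7.71 and 29.5. Trp53 (GRCm38, chromosome 11, 69580348 to 69591873) had 1954, 2014 and 1706 normalized counts in the 3 p53KO–emiRFP libraries and 16814, 19153 and 17871 in the 3 WT–emiRFP libraries, so that 10.5% of its RNA remained. The 3 H2B genes with higher counts in emiRFP than in mCherry clones did not pass the test between the emiRFP populations. Their summed level was 9119 to 11059 normalized counts in p53KO–emiRFP and 9423 to 10813 in WT–emiRFP cells.

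Of 18901 genes tested, 5156 were higher in p53KO–emiRFP cells (27.3%) and 4475 were lower (23.7%), which together is 51.0%. With a change of at least 2-fold in addition, 989 were higher (5.23%) and 2215 lower (11.7%), so that large differences were mostly losses. The replicates of the 2 groups did not overlap for 6204 genes that were higher (32.8%) and 5176 that were lower (27.4%). The median log2 fold change of all tested genes was 0.05. Counts of list members below are to be read against the 27.3% and 23.7%, and since the libraries are bulk samples, fewer cells of a type and less RNA per cell cannot be told apart.

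**Figure D1:**
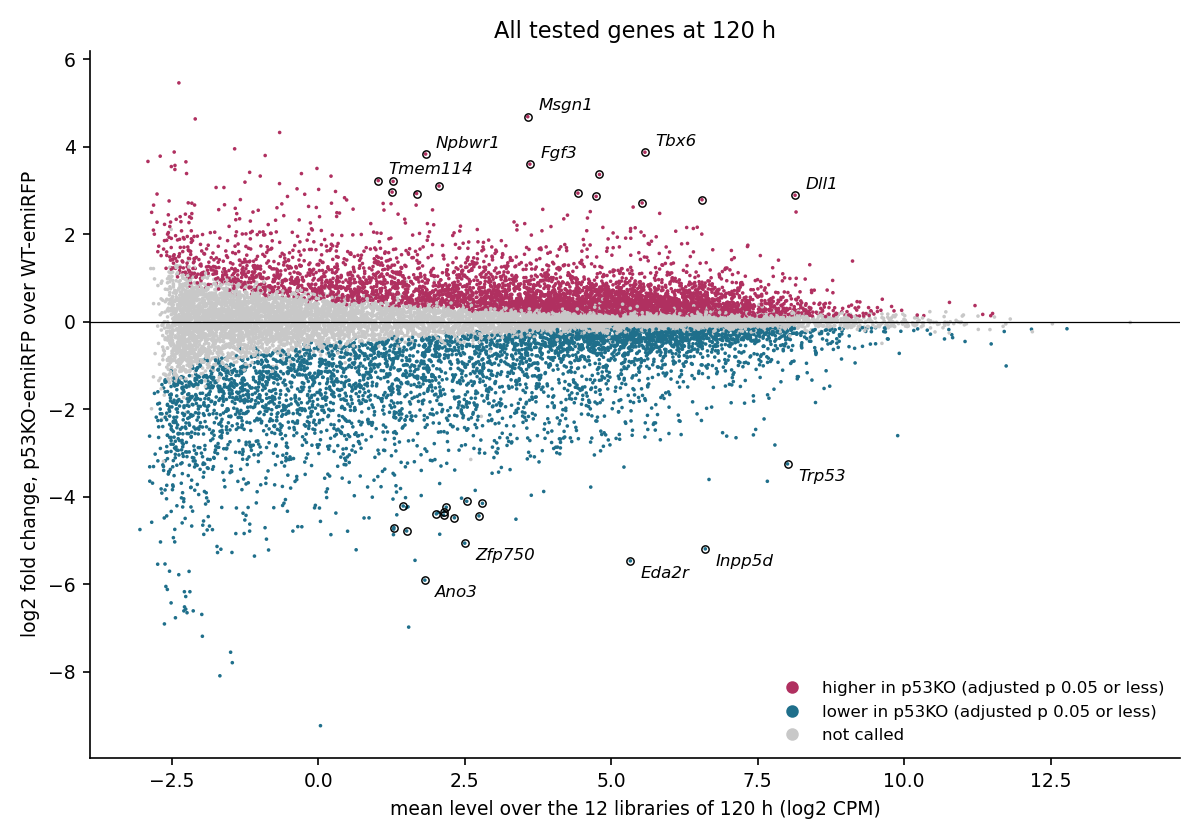
Log2 fold change of p53KO–emiRFP over WT–emiRFP cells at 120 h for every tested gene (y axis) against its mean abundance in log2 CPM (x axis), with genes past the adjusted p of 0.05 coloured by direction and named genes labelled. The labelled genes, all at 1 log2 CPM or more on average, reach from Ano3 (-5.90) to Msgn1 (4.69), and the extreme fitted values of -9.23 and 5.46 belong to genes below that level.

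The known targets of p53 were mostly lower. Of 40 tested targets 33 were lower and 3 higher, with a median log2 fold change of -1.28. Cdkn1a, which encodes the cell cycle inhibitor p21, had 559, 612 and 453 normalized counts in p53KO–emiRFP and 3513, 3673 and 3334 in WT–emiRFP cells, a log2 fold change of -2.69 (standard error 0.12, adjusted p = 7.1e-10). Ccng1, a cyclin that acts in p53 feedback, had 989, 1070.0 and 1078 against 13349, 11982 and 13858, a log2 fold change of -3.64 (standard error 0.07, adjusted p = 6.4e-13). In both genes every p53KO–emiRFP library lay far under every WT–emiRFP library. Mdm2 had 3461, 3349 and 3667 against 6873, 7357 and 7234 normalized counts and a smaller log2 fold change of -1.03 (standard error 0.06, adjusted p = 1.6e-08). Among targets that act in apoptosis, the log2 fold change was -1.96 for the death receptor Fas, -1.49 for the death receptor Tnfrsf10b, -1.23 for the pore-forming Bax, -1.01 for the BH3-only factor Bbc3 (Puma) and -0.69 for the apoptosome scaffold Apaf1. The BH3-only factor Pmaip1 (Noxa) rose instead, by 0.71. The others that rose were the DNA damage sensor Ddb2 (0.40) and the mTORC1 inhibitor Ddit4 (0.94). Sesn1, Btg2, Xpc and Rrm2b did not pass the test, with log2 fold changes of 0.06, 0.03, 0.05 and -0.13. The levels that remained in p53KO–emiRFP cells ranged widely, from 2.26% of the WT–emiRFP level for Eda2r to 84.4% for Ei24 among the targets that fell (without replicate 1 the adjusted p of Ei24 was 0.085).

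p53 binds a 10-base motif, usually as a pair of copies. In the window from 250 bases before to 50 after any RefSeq start of a gene, of which some genes have several, on GRCm38.p6, the motif in its consensus form was found in 10 of 30 targets with a window and in 8.45% of the 12928 tested genes with a window. The sites of all 9 targets that fell and had a match are shown from the largest fall to the smallest, with the match in capitals and 10 bases on each side, and they read along the strand of the gene.
Ccng1 (chr11:40755452-40755481, minus strand): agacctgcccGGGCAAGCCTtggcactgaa
Cdkn1a (chr17:29090918-29090947, plus strand): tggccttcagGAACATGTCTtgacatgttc
Polk (chr13:96519399-96519428, minus strand): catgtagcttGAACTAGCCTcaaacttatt
Bax (chr7:45467080-45467109, minus strand): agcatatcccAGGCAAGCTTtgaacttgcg
Gtse1 (chr15:85859945-85859974, plus strand): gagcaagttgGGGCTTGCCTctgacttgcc
Mdm2 (chr10:117710925-117710954, minus strand): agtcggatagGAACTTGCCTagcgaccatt
Aen (chr7:78895927-78895956, plus strand): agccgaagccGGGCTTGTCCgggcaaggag
Ckap2 (chr8:22186003-22186032, minus strand): ctgtgtctgaAGACATGTCCtgacttgtca
Ei24 (chr9:36797325-36797354, minus strand): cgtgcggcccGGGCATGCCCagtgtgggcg
The match began 51 bases before the start in Cdkn1a, 185 in Ccng1, 186 in Mdm2 and 201 in Bax, and 9 bases after it in Gtse1, a mitotic gene that fell by 1.21 on the log2 scale. Polk, a DNA polymerase that copies past lesions, fell by 1.32, the nuclease Aen by 1.00, the spindle protein Ckap2 by 0.67 and Ei24 by 0.24, so that targets with a match had both large and small falls. Cdkn1a had a further match and was the only target with a pair of matches no more than 13 bases apart, an arrangement held by 9 of the 12928 genes (0.0696%). A match is a description of these letters, and the motif was also present in Sesn1, which did not pass the test. Sites in introns or farther upstream were not searched.

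Presomitic mesoderm genes were higher almost throughout. Of 16 tested members 15 were higher and 1 lower, with a median log2 fold change of 2.16. The Notch ligand Dll1 had 27784, 29575 and 34049.9 normalized counts in p53KO–emiRFP and 4698, 3637 and 3969 in WT–emiRFP cells, a log2 fold change of 2.89 (standard error 0.13, adjusted p = 5.8e-10). Hes7, the transcriptional repressor of the segmentation clock, had 2245, 2709.8 and 2438 against 371, 257 and 336, a log2 fold change of 2.94 (standard error 0.13, adjusted p = 7.7e-10). For both genes every p53KO–emiRFP library lay above every WT–emiRFP library. Lfng, which modifies Notch in the clock, had 3455, 4349 and 5005 against 1149.5, 929 and 1009 (2.05, standard error 0.14, adjusted p = 2.9e-08). Rspo3, a secreted enhancer of Wnt signalling, had 4622, 4958 and 5462 against 935, 586 and 767 (2.72, standard error 0.17, adjusted p = 1.6e-08). Mesp2, which sets the front border of the next somite, had 829.8, 1129.8 and 1071 against 332, 337 and 285 (1.67, standard error 0.14, adjusted p = 3.3e-07). Ripply2, a target of Mesp2, was higher too (1.77), while Ripply1, which acts with Ripply2 to end Mesp2 expression, was the 1 member that fell, with 80.7, 93.3 and 98.3 against 204, 134 and 165 normalized counts (-0.88, standard error 0.17, adjusted p = 0.00072).

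Of the 20 genes of the Notch pathway and clock, which share 5 members with the presomitic list, 13 were higher and 3 lower (median 0.67). The receptor Notch1 rose by 1.41, the feedback inhibitor Nrarp by 2.18 and the target Hes5 by 2.22. The ligands Dll4 and Jag2 and the DNA-binding partner Rbpj fell (-1.38, -0.59 and -0.79), and the ligand Jag1 rose by 0.89. Dll4 did not pass without replicate 1 or 3 (adjusted p = 0.057 and 0.065). Among the 15 largest gains of genes whose level averaged 1 log2 CPM or more, predicted and unnamed genes left out, were, besides the mesoderm genes named, the neuropeptide receptor Npbwr1 (3.83), the potassium channel Kcnk3 (3.10), the metalloprotease Tll2 (2.97), the matrix protein Adamtsl2 (2.93), the membrane protein Tmem114 (3.23) and the apelin receptor Aplnr (2.87). Kcnk3 had 377, 506 and 632 normalized counts in p53KO–emiRFP and 58.5, 57.2 and 60.1 in WT–emiRFP cells, and Aplnr had 2585, 3498 and 2933 against 473, 409 and 356.

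**Figure D2:**
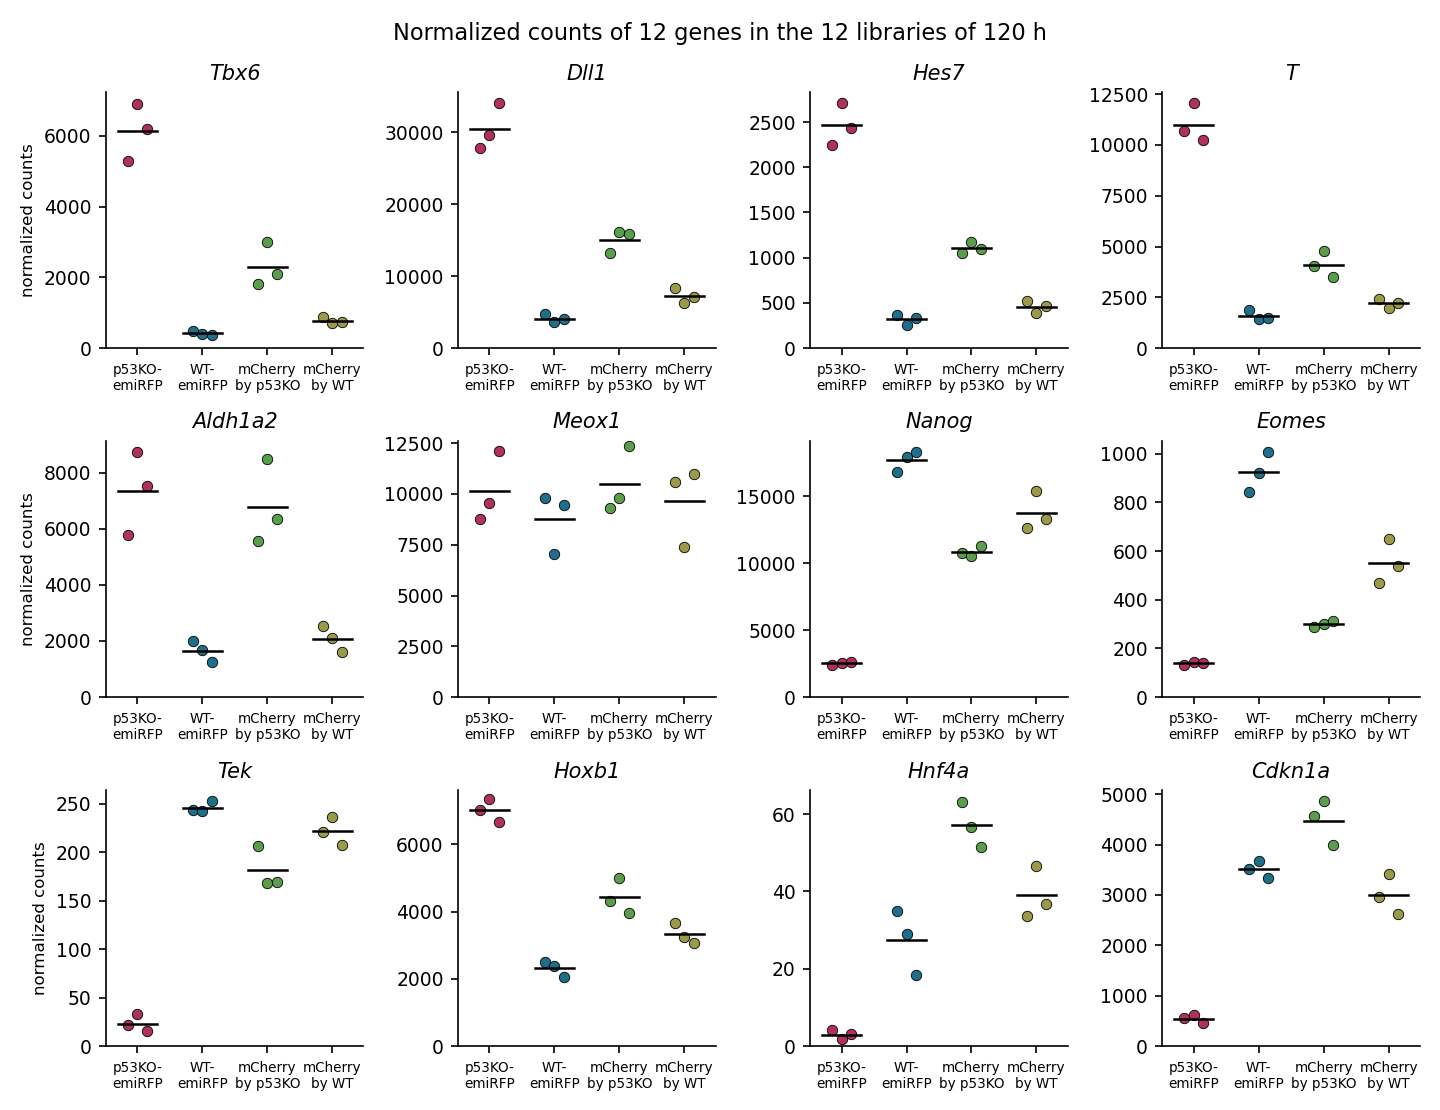
Normalized counts (y axes, linear and from 0) of 12 genes in the 4 sorted populations at 120 h, with each point a library and the bar the mean of 3. Dll1 and Hes7 are highest in p53KO–emiRFP cells, Nanog and Eomes lowest there, and Aldh1a2 is also raised in WT–mCherry cells beside p53KO cells.

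Genes of the caudal epiblast and of neuromesodermal progenitors were higher as well, 16 of 18 tested, with a median of 1.76. T, the T-box factor of the tail bud, had 10686, 12077 and 10225 normalized counts in p53KO–emiRFP and 1866, 1442 and 1461 in WT–emiRFP cells, a log2 fold change of 2.79 (standard error 0.13, adjusted p = 8.4e-10). Cdx2, a homeobox factor of posterior identity, had 15035, 13853 and 13080.3 against 4653, 3643 and 4438 (1.72, standard error 0.10, adjusted p = 8.5e-09). Fgf8, the FGF ligand of the tail, had 4123, 4831 and 3890.5 against 766, 639 and 681 (2.62, standard error 0.15, adjusted p = 7e-09). For these 3 genes the groups did not overlap. Nkx1-2, which marks the progenitors, rose by 1.01, Cdx4 by 2.16 and Evx1 by 2.35. Wnt8a (0.52, adjusted p = 0.1) and Grrp1 (-0.08, adjusted p = 0.68) did not pass the test, and Wnt8a did with the replicate number as a block (adjusted p = 3.7e-05).

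Of 18 Wnt targets and feedback genes 15 were higher, with a median of 1.05, and Sfrp5, Znrf3 and Dkk4 did not pass the test (-0.56, 0.05 and 0.45), though Sfrp5 was lower with the block (adjusted p = 0.005). Axin2, a negative feedback target of Wnt, had 8833, 7974 and 8237 normalized counts in p53KO–emiRFP and 3938, 3851 and 3966 in WT–emiRFP cells (1.09, standard error 0.05, adjusted p = 1.7e-09). The secreted antagonist Dkk1 rose by 2.67, the transcription factor Sp5 by 2.16 and the receptor Lgr5 by 1.44. Of 17 Wnt ligands 7 were higher and 3 lower, among them Wnt10a (2.87) and Wnt5b (2.03) higher and Wnt3 (-1.38), the ligand of the primitive streak, and Wnt7b (-2.66) lower. Of 24 genes of FGF and ERK signalling 17 were higher and 6 lower (median 0.49). The ligand Fgf3 had 1466, 1683 and 1539 against 158, 126 and 103 normalized counts (3.60, standard error 0.19, adjusted p = 3.3e-09), Fgf18 rose by 1.41, and the feedback inhibitors Spry4 and Dusp6 by 1.05 and 0.52. Fgf4 and Fgf5, ligands of the pluripotent epiblast, and the receptor Fgfr2 fell (-0.43, -1.62 and -0.72), Fgf4 with an adjusted p of 0.13 without replicate 3.

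TCF and LEF factors, the transcription factors of the Wnt pathway, bind the core CTTTGAT, searched on both strands. It was present in the windows of 2 of 14 presomitic mesoderm genes and 3 of 14 caudal genes with a window, beside 3.16% of all 12928 genes. The 4 matches with 10 bases on each side in the window are shown with the match in capitals, which in Msgn1 lies on the opposite strand.
Msgn1 (chr12:11209135-11209161, minus strand): gatgctaattATCAAAGaggggaaagt
Mesp1 (chr7:79793605-79793631, minus strand): ctcgagccggCTTTGATatgctgatga
Sp5 (chr2:70474809-70474835, plus strand): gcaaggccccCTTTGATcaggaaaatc
Wnt5b (chr6:119449441-119449467, minus strand): gtaagtctctCTTTGATctgctccctg
The matches began 203, 31, 104 and 71 bases before the start, and these genes rose by 4.69, 2.26, 2.16 and 2.03 on the log2 scale. The match of Greb1, an estrogen-responsive gene that rose by 1.75, lay too near the edge of its window for that. The T-box core CACACCT was present in 2 of 14 and 4 of 14 genes and in 5.79% of all, and the CDX core TTTATGG in 1 of 14, 2 of 14 and 2.07% of all.

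Retinoic acid is made in somites by Aldh1a2 and cleared in the tail by Cyp26a1. Both enzymes were higher in p53KO–emiRFP cells. Aldh1a2 had 5762, 8748 and 7509 normalized counts in p53KO–emiRFP and 1992, 1679 and 1254 in WT–emiRFP cells (2.16, standard error 0.21, adjusted p = 1.4e-06), and Cyp26a1 had 4894, 4914 and 4089 against 1678, 1269.6 and 1128 (1.77, standard error 0.17, adjusted p = 1.1e-06). Of 15 genes of the pathway 9 were higher and 4 lower. The carriers Crabp1 and Crabp2 rose by 1.97 and 1.15, while the enzymes Cyp26b1 and Aldh1a3, the receptor and target Rarb and the target Stra8 fell (-1.60, -1.27, -0.44 and -1.67). Without replicate 1 or 3 the adjusted p was 0.062 and 0.12 for Aldh1a3, and 0.24 and 0.069 for Rarb.

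Hox genes were higher over most of each cluster. Of the 34 tested Hox genes reported here, which are not all that were measured, 28 were higher and 1 was lower, with a median log2 fold change of 1.14. Paralogue groups 1 to 4 had 11 of 11 reported genes higher (median 1.24), groups 5 to 9 had 15 of 15 (median 1.24) and groups 10 to 13 had 2 of 8, with 1 lower (median 0.64). All 10 tested genes of the B cluster were higher, and 7 of 10 reported genes of the A cluster. Hoxb1 had 7010.0, 7350.3 and 6674 normalized counts in p53KO–emiRFP and 2494, 2387 and 2066 in WT–emiRFP cells (1.60, standard error 0.09, adjusted p = 1e-08). Hoxb9 had 12057, 11209.8 and 10912 against 4744, 3712 and 3929.5 (1.46, standard error 0.11, adjusted p = 6.8e-08). The most posterior group was divided, with Hoxb13 and Hoxd13 higher (1.26 and 1.50) and Hoxc13 lower (-1.27, adjusted p = 0.003). Hoxc13 had 22.5, 27.2 and 19.1 against 49.3, 70.7 and 47.1 normalized counts, and Hoxb13 was similarly low, with means of 49.8 in p53KO–emiRFP and 20.9 in WT–emiRFP cells.

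**Figure D3:**
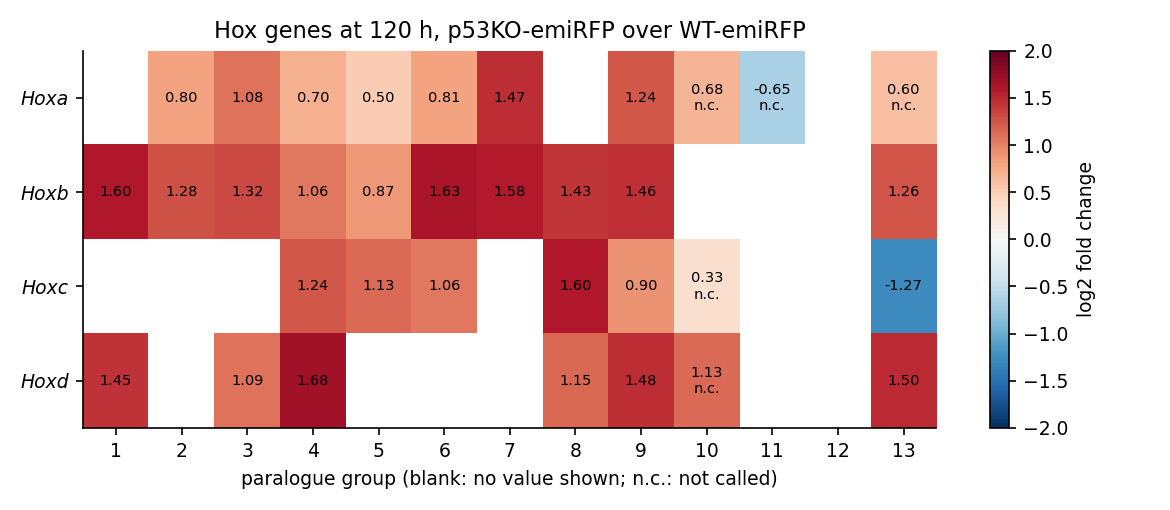
Log2 fold change of p53KO–emiRFP over WT–emiRFP cells at 120 h for the Hox genes, arranged by cluster (rows) and paralogue group (columns), with the value in each cell and positions with no value shown left blank. Cluster B is higher at every tested position, and the negative values are those of Hoxa11 and Hoxc13, of which Hoxc13 passed the test.

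Genes of formed somites were divided: of 15 tested 4 were higher and 3 lower, with a median of 0.01 (-0.07 without replicate 2). Meox1, a homeobox factor of somites, had 8750.2, 9565 and 12103 normalized counts in p53KO–emiRFP and 9789, 7067 and 9455 in WT–emiRFP cells (0.21, adjusted p = 0.32). Foxc1 and Foxc2, forkhead factors of paraxial mesoderm, rose by 1.07 and 1.01. Pax1 of the sclerotome, Meox2 and Tbx18 fell (-1.49, -1.40 and -1.03), and Tcf15, Pax3 and Uncx did not pass the test (-0.18, -0.23 and 0.36). Without replicate 1 the losses of Pax1, Meox2 and Tbx18 had adjusted p values of 0.097, 0.058 and 0.051, Uncx was higher with the replicate number as a block (adjusted p = 0.028), and Pax3 was lower without replicate 2 (adjusted p = 0.04). Other mesoderm lists also had members in both directions. Lateral plate genes had 5 higher and 4 lower of 15 (33.3% and 26.7%), with Foxf1 (1.66) and Hand2 (1.62) higher and Tbx4 (-3.17) and Hand1 (-1.11) lower. Intermediate mesoderm genes had 5 higher and 3 lower of 12 (41.7% and 25.0%), with Pax2 (2.46) and Lhx1 (1.66) higher and Wt1 (-1.32) lower. Cardiac genes had 6 of 20 each way (30.0%), with Tbx5 (1.15) higher. Of the contractile genes on the list Myl7 (-1.56), Myh6 (-1.38) and Tnnt2 (-0.69) were lower, Actc1 (0.78) was higher, and Tnni1 (0.10) and Myl4 (-0.42) did not pass the test. Lateral plate genes had 3 higher without replicate 2 or 3 and 2 lower without replicate 1. Hand1 did not pass without replicate 1 or 3 (adjusted p = 0.24 and 0.13), Tbx5 without replicate 1 (0.07) and Tnnt2 without replicate 2 or 3 (0.14 and 0.058). Of 20 collagen chains 8 were higher and 4 lower.

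**Figure D4:**
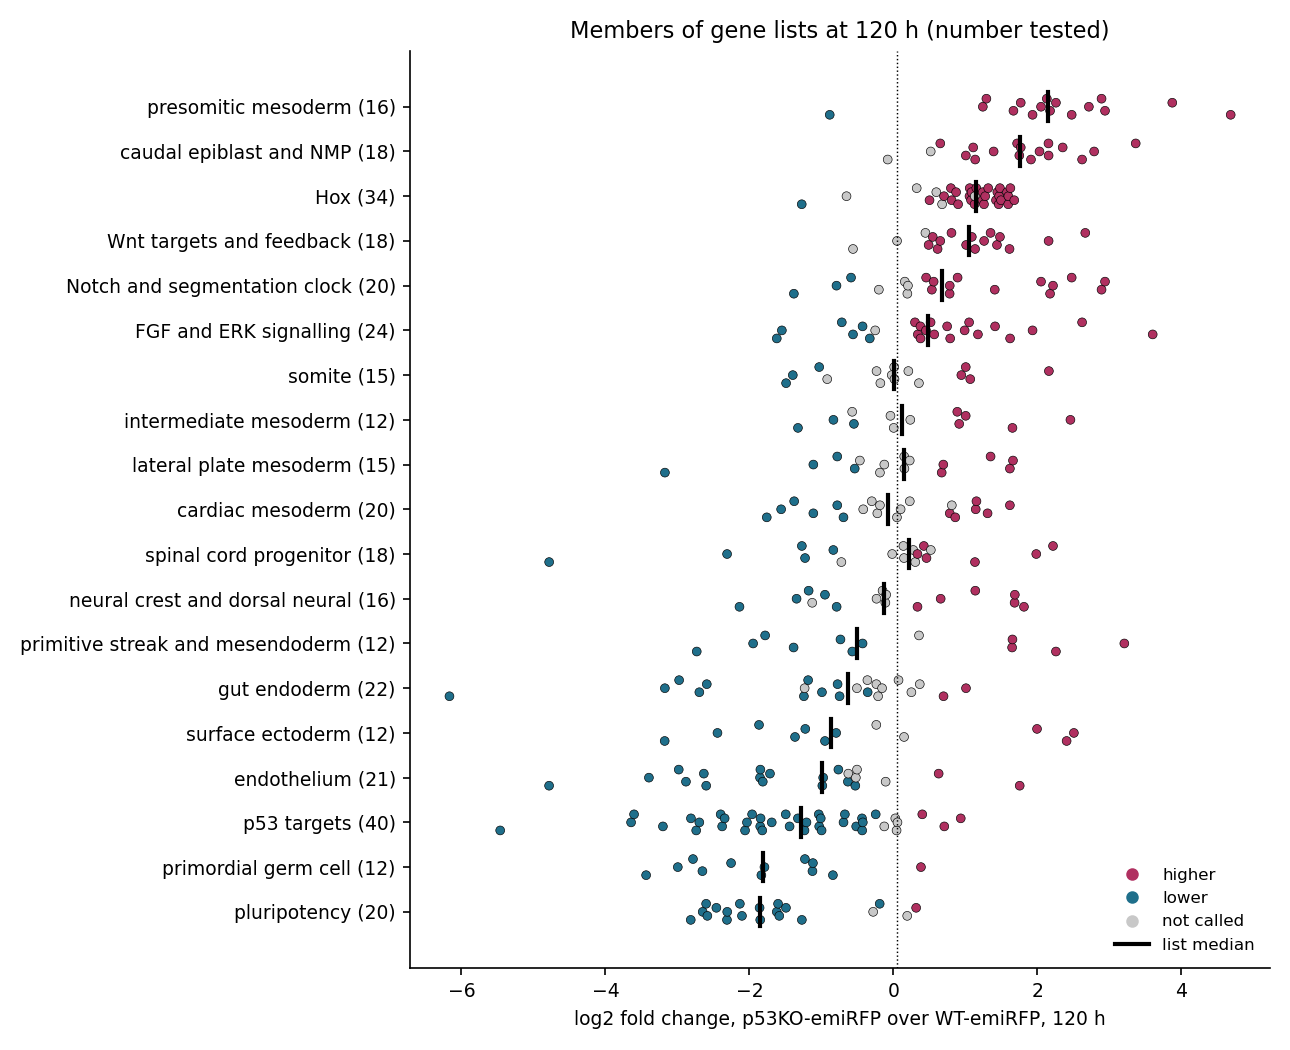
Log2 fold changes of p53KO–emiRFP over WT–emiRFP cells at 120 h (x axis) for the members of each gene list (rows), with each point a gene, coloured by direction where it passed the test and grey where it did not, a bar at the list's median and a dotted line at the median of all tested genes. Ttr, at the left end of gut endoderm, is plotted at its fitted value, which with 0 counts in p53KO–emiRFP cells depends on the fit. Presomitic mesoderm, caudal epiblast, Wnt targets and Hox genes lie mostly to the right of 0, and p53 targets, pluripotency, germ cell and endothelial genes mostly to the left.

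Genes of pluripotent and germ cells were lower. Of 20 tested pluripotency genes 17 were lower and 1 higher, with a median of -1.85. Nanog had 2377, 2572 and 2594 normalized counts in p53KO–emiRFP and 16813, 17924 and 18309 in WT–emiRFP cells, a log2 fold change of -2.81 (standard error 0.08, adjusted p = 8.1e-12). Pou5f1, which encodes Oct4, had 2849, 3301 and 2469 against 9284, 11308 and 10647 (-1.86, standard error 0.15, adjusted p = 2e-07). Esrrb, an orphan nuclear receptor of naive stem cells, had 2284, 2411 and 2547 against 11927, 14089 and 13774 (-2.46, standard error 0.09, adjusted p = 1.4e-10). The loss took in genes of the naive state (Klf2, -2.13, and Zfp42, -2.58) and, of the formative epiblast, Otx2 (-1.49) and Fgf5 (-1.62), while the formative genes Pou3f1 (-0.28, adjusted p = 0.43) and Dnmt3b (0.19, adjusted p = 0.061) did not pass the test. Dnmt3b was higher with the replicate number as a block (adjusted p = 0.0022), without replicate 2 (0.019) and in the fit of the 6 libraries (0.03). Lin28a, an RNA-binding protein that outlasts pluripotency in the embryo, was the 1 member that rose (0.32). Of 12 germ cell genes 11 were lower, among them the germ cell specifier Tfap2c with 1391, 1362 and 1532 against 6317, 7121 and 6989 (-2.25, standard error 0.09, adjusted p = 2.9e-10), Nanos3 (-2.78), Dazl (-2.65) and Itgb3 (-2.99). Ifitm1 rose by 0.38.

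A total of 5 members of the Zscan4 family, genes of the 2-cell-like state into which a few stem cells pass, were among the 15 largest losses within the same limits. Zscan4c had 14.3, 14.5 and 23.1 normalized counts in p53KO–emiRFP and 438, 343 and 343 in WT–emiRFP cells (-4.43, standard error 0.31, adjusted p = 5.2e-08), and Zscan4d had 10.2, 33.5 and 13 against 385, 344 and 273 (-4.10). Tmem92 and Eif4a3l1, further genes of that state, fell by 4.70 and 4.78 on the log2 scale. Members of the Zscan4 family are near-identical in sequence and only uniquely mapped reads were counted, so the split of reads among them is uncertain.

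Other genes among the 15 largest losses were low in all p53KO–emiRFP libraries. Ano3, an anoctamin, had 3.07, 2.72 and 4.01 normalized counts in p53KO–emiRFP and 189.9, 182 and 230.2 in WT–emiRFP cells (-5.90, standard error 0.21, adjusted p = 7.4e-11). Inpp5d, the inositol phosphatase SHIP1, had 202, 222 and 198 against 7031, 8262 and 7411 (-5.19, standard error 0.12, adjusted p = 2.1e-12). Zfp750, a zinc finger factor of epidermal differentiation, had 12.3, 9.97 and 12 against 330.5, 442 and 374 (-5.06, standard error 0.24, adjusted p = 1.1e-09). These levels in p53KO–emiRFP cells were 1.63%, 2.74% and 2.99% of those in WT–emiRFP cells. The synaptic vesicle protein Svop (-4.39), the lipoxygenase Alox5 (-4.34), the phosphatase Ptprv (-4.24) and the adhesion protein Dscaml1 (-4.21) completed the group.

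Primitive streak genes were divided, and Nodal and several genes of its pathway were lower. Of 12 tested streak genes 7 were lower and 4 higher (median -0.50). Eomes, the T-box factor of mesendoderm, had 133, 145 and 139 normalized counts in p53KO–emiRFP and 842, 923 and 1008 in WT–emiRFP cells (-2.73, standard error 0.12, adjusted p = 8.4e-10). The ligand Nodal had 636, 844 and 721 against 2323, 2738 and 2509.7 (-1.78, standard error 0.13, adjusted p = 9.5e-08), and its coreceptor Tdgf1 fell by 1.95. The antagonists Lefty1 and Lefty2 fell by 1.12 and 0.57 and Foxh1, a transcription factor of the pathway, by 0.73 (without replicate 3 its adjusted p was 0.054). The homeobox gene Mixl1 went the other way, with 307, 385 and 327 against 42.1, 29.1 and 38.8 (3.21, standard error 0.21, adjusted p = 2.2e-08). So did the secreted antagonists Cer1 and Dand5, which are on other lists (1.01 and 0.71). Of 24 BMP and Nodal pathway genes together 8 were higher and 9 lower, with Bmp2 (1.24) and Id1 (1.29) higher and Bmp4 (-0.54) and Smad7 (-1.75) lower.

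Endothelial genes were lower, 15 of 21 tested, with 2 higher and a median of -0.99. Tek, the angiopoietin receptor, had 21.5, 32.6 and 15.1 normalized counts in p53KO–emiRFP and 243, 242 and 252 in WT–emiRFP cells (-3.40, standard error 0.19, adjusted p = 7.2e-09). Emcn, a sialomucin of endothelium, had 1.02, 2.72 and 2.01 against 55.4, 50.4 and 63.8 (-4.78, standard error 0.34, adjusted p = 6.2e-08). Pecam1, which stem and germ cells also express, had 574, 669 and 526 against 3459.9, 3979 and 3538 (-2.63, standard error 0.11, adjusted p = 4.4e-10). The members were not equally affected: Cdh5, Tie1, Erg and Flt1 did not pass the test (-0.62, -0.52, -0.50 and -0.11), although the first 3 were lower with the replicate number as a block (adjusted p = 0.043, 0.01 and 0.047). Lmo2, a cofactor of haematopoietic genes, rose by 1.76. Of 10 blood genes 3 were lower and 2 higher, with Gata2 at -2.37 and the erythropoietin receptor Epor at 1.30 (5 lower in the fit of all 69 libraries, and 1 higher without replicate 2 or 3).

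Of 22 gut endoderm genes 11 were lower and 2 higher (median -0.63). The other 9 did not pass the test. They were Foxa1, Foxa2, Foxa3, Krt8, Krt18, Cldn6, Apoa1, Nepn and Hhex (0.07, -0.24, -0.21, 0.37, -0.36, -0.16, -1.23, 0.25 and -0.51). Hnf4a, a nuclear receptor of liver and gut, had 4.09, 1.81 and 3.01 normalized counts in p53KO–emiRFP and 34.9, 29.1 and 18.5 in WT–emiRFP cells (-3.17, standard error 0.38, adjusted p = 9.8e-06). Ttr, a thyroid hormone carrier of visceral endoderm and liver, had 0 counts in all 3 p53KO–emiRFP libraries and 5.13, 14.5 and 4.62 normalized counts in WT–emiRFP libraries, which is at least 2.76-fold lower against a floor of 3 counts per library. The apolipoprotein Apob fell by 2.69, and Krt19 and the secreted antagonist Cer1 rose by 0.70 and 1.01. Of 12 surface ectoderm genes 7 were lower, with the keratin Krt14 at -3.18 and Trp63, the p53 family member of epidermis, at -1.87, and Dlx5, Dlx6 and Wnt6 were higher (2.41, 2.51 and 2.00). Krt19 did not pass without replicate 1 or 3 (adjusted p = 0.16 and 0.065), nor Trp63 without replicate 1 or 2 (0.079 and 0.083). Of 10 notochord and node genes 3 were higher and 2 lower, and 5 higher with the block, with the BMP antagonist Chrd at 1.52 and the ciliary factor Foxj1 at -1.71. Of 15 genes of cell adhesion and epithelial-mesenchymal transition 7 were higher and 3 lower. The epithelial cadherin Cdh1 fell by 0.86 and the mesenchymal cadherin Cdh2 rose by 0.97.

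Neural lists had members in both directions. Of 18 spinal cord progenitor genes 6 were higher (33.3%) and 5 lower (27.8%), beside 27.3% and 23.7% of all tested genes (median 0.21). Without replicate 1 there were 4 higher and 4 lower, and the median was -0.0047. Sox2, shared with pluripotent cells, had 5219, 5003 and 4748 normalized counts in p53KO–emiRFP and 11776, 11176 and 13153 in WT–emiRFP cells (-1.27, standard error 0.08, adjusted p = 1.4e-08). Pax6 had 437, 333 and 386 against 373, 354 and 317, which did not pass the test (0.15, adjusted p = 0.38), and Sox1, which marks neural progenitors, rose by 0.34 (without replicate 2 the adjusted p was 0.12). The ventral gene Nkx2-9 and the dorsal gene Olig3 fell (-4.78 and -2.31). Of 11 neuronal genes 4 were higher and 4 lower, with Dcx at 2.18 and Tubb3 at -0.96. Of 16 neural crest and dorsal genes 6 were higher and 5 lower, with Sox9 at 1.82 and Erbb3 at -2.14.

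Proliferation genes differed little in size. Of 30 genes of G1/S and DNA replication 7 were higher and 5 lower, with a median of 0.00, and of 30 G2/M genes 2 were higher and 9 lower, with a median of -0.09. With TMM scaling 8 G1/S and 14 G2/M genes were lower. With the replicate number as a block 10 G1/S and 15 G2/M genes were lower, and without replicate 1 3 and 2. G1/S genes had 2 lower without replicate 3. Without replicate 1 4 G1/S genes and 1 G2/M gene were higher. Ccnd2, a cyclin of G1, rose by 1.24 and Ccnd1 by 0.55, while Ccne1 fell by 0.26 and Ccnb1 by 0.35. Of 7 CDK inhibitors 3 were higher and 3 lower. Besides Cdkn1a, the CDK inhibitors Cdkn2b and Cdkn2d fell (-1.38 and -0.47), and Cdkn1b, Cdkn1c and Cdkn2c rose (0.55, 0.52 and 0.51), Cdkn2c with adjusted p values of 0.077 and 0.06 without replicate 1 or 3. Myc had 2435, 2283 and 2177 normalized counts in p53KO–emiRFP and 2327, 2100.1 and 2423 in WT–emiRFP cells (0.01, adjusted p = 0.94), and Mycn rose by 0.43. Of 33 genes of ribosome biogenesis and the Myc network 5 were higher and 7 lower (median -0.04), and 12 were lower with the block and 3 higher without replicate 1 or 3. Of 26 reported genes of the apoptosis machinery 8 were higher and 7 lower. The anti-apoptotic Bcl2 rose by 0.76 and Mcl1 fell by 0.95. Glycolysis and hypoxia genes had 7 higher (4 without replicate 1) and 10 lower of 24.

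WT–mCherry cells beside p53KO cells were set against WT–mCherry cells beside WT cells to ask how much the gastruloid itself differed. Of 18901 genes 645 were higher (3.41%) and 477 lower (2.52%), 5.94% together. The difference between the p53KO contrast and this neighbour contrast passed the test in 3077 genes in which the p53KO contrast was the higher (16.3%) and in 3183 in which it was the lower (16.8%). With the replicate number as a block the former were 5006. Without replicate 1 they were 968 and the latter 1699, and without replicate 3 the former were 1846. Of the 16 presomitic genes 14 were higher in these neighbours too (median 0.94), and in 12 the p53KO contrast exceeded the neighbour contrast. Higher in the neighbours were also 8 of 18 caudal epiblast genes (median 0.43), 10 of 18 Wnt targets (median 0.57), 9 of 20 Notch and clock genes, 11 of 24 glycolysis and hypoxia genes and 2 of 34 Hox genes. Over the whole of these lists the p53KO contrast exceeded the neighbour contrast in 15 caudal, 11 Wnt target, 11 Notch, 1 glycolysis and 26 Hox genes. It lay below the neighbour contrast in 0 caudal, 0 Wnt target, 2 Notch, 11 glycolysis and 1 Hox genes. Among endothelial genes 6 of 21 were lower and 2 higher in the neighbours (median -0.29). Of 20 pluripotency genes 4 were lower and 0 higher there (median -0.30). Tbx6 had 1810.1, 2986 and 2085 normalized counts in WT–mCherry cells beside p53KO and 879, 706 and 749 beside WT cells, and its p53KO contrast exceeded the neighbour contrast by 2.32 (standard error 0.23, adjusted p = 6.5e-06). Aldh1a2 had 5545, 8488 and 6327 against 2549, 2099.7 and 1596, a neighbour contrast of 1.71, and the difference of 0.46 did not pass the test (adjusted p = 0.25). For Aldh1a2, then, both sorted populations were higher in WT + p53KO gastruloids. Etv2, a factor of haematoendothelial progenitors, and Wt1 also had differences near 0 (0.02 and -0.04), with neighbour contrasts of -1.01 and -1.28. Of 40 p53 targets 12 were higher and 1 lower in the neighbours (median 0.18), and Ddit4 was higher there by 0.94. The summed level of the 3 H2B genes was 383 to 741 normalized counts in WT–mCherry cells beside p53KO and 154 to 228 beside WT cells, so the emiRFP marker genes moved with the neighbour contrast. Unequal numbers of emiRFP cells among the sorted WT–mCherry cells would add to the neighbour contrast, and their part in it was not tested.

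The p53KO contrast had changed since 96 h. At 96 h 9.45% of genes were higher and 13.8% lower in p53KO–emiRFP cells. Over the 19448 genes of the joint fit the contrast was higher at 120 h than at 96 h in 3933 (20.2%) and lower in 3068 (15.8%). The presomitic list had 10 of 15 lower at 96 h (median -0.74), and its contrast was higher at 120 h in 14 of 16. Dll1 had 12947, 12268 and 17808 normalized counts in p53KO–emiRFP and 20121, 19181 and 27879 in WT–emiRFP cells at 96 h (-0.64), and its contrast rose by 3.54 to 120 h (adjusted p = 4.1e-10). Aldh1a2 went from -1.81 at 96 h to 2.16 at 120 h, a change of 3.97 (adjusted p = 1e-10). In WT–emiRFP cells the 96 h counts of Dll1 were above those of 120 h, and in p53KO–emiRFP cells the 120 h counts were above those of 96 h, in every library. Of all genes tested at both times 465 of 17975 were lower at 96 h and higher at 120 h, and 171 the reverse. p53 targets had medians of -1.23 at 96 h, -1.28 at 120 h and -1.31 at 144 h.

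At 144 h 33.2% of tested genes were higher and 32.2% lower. Of 18573 genes tested at both times, 4217 were higher and 3962 lower at both 120 and 144 h, 81 were higher at 120 h and lower at 144 h, and 85 the reverse. The contrast was higher at 144 h than at 120 h in 2427 genes (12.5%) and lower in 1578 (8.11%). These counts were 1152 and 461 without replicate 1, and 911 and 962 were lower without replicate 2 or 3. The median of the Hox list went from 0.07 at 96 h to 1.14 at 120 h and 2.59 at 144 h, and that of the caudal epiblast list from 0.44 to 1.76 and 3.09. The somite list, near 0 at 120 h, had 14 of 15 higher at 144 h, with a median of 1.58. Wnt5a, a ligand of elongating tissue, had 6809.7, 5652 and 7686 normalized counts in p53KO–emiRFP and 3258, 2434 and 3462 in WT–emiRFP cells at 120 h (1.14) and 7524, 7476 and 7821 against 328, 211 and 249.5 at 144 h (4.85), a change of 3.71 (adjusted p = 5.8e-10). Dkk1 went from 2.67 at 120 h to -0.40 at 144 h, a change of -3.07 (adjusted p = 8.5e-05). The changes from 96 to 120 h and from 120 to 144 h share the libraries of 120 h.

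**Figure D5:**
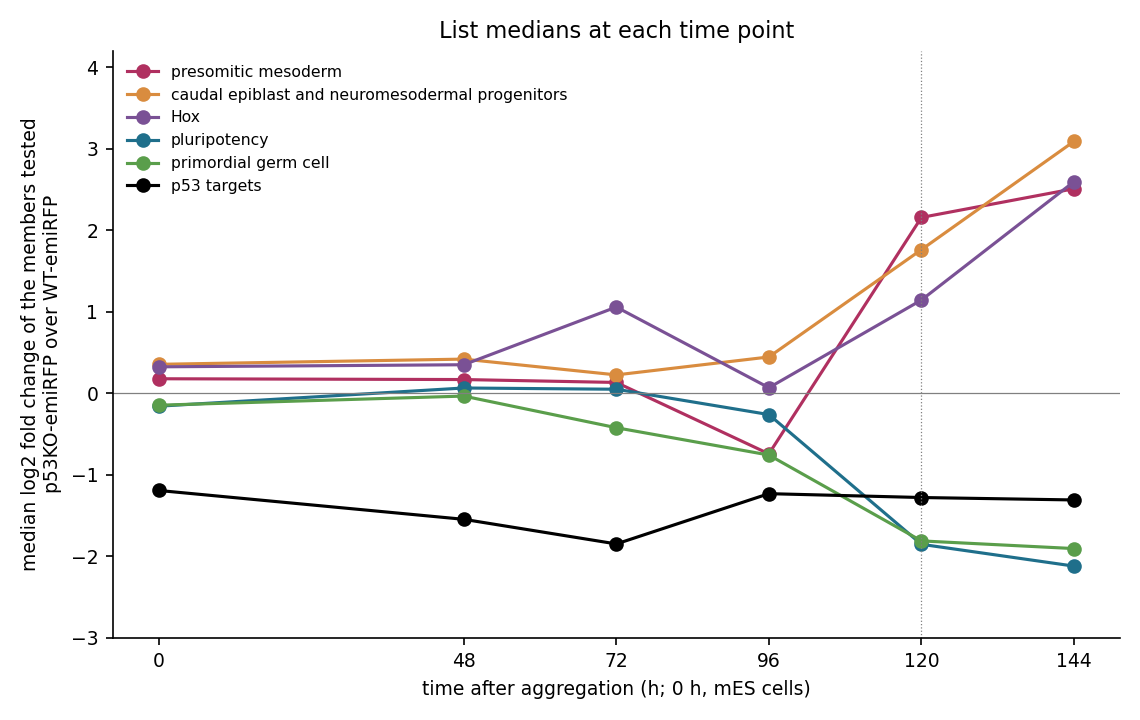
Median log2 fold change of p53KO–emiRFP over WT–emiRFP cells for selected gene lists (y axis) at each time from 0 to 144 h (x axis), over the members tested at that time. Presomitic mesoderm passes from -0.74 at 96 h to 2.16 at 120 h, while p53 targets stay below -1 at each time. The Hox median of 1.06 at 72 h is over 27 members tested.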

How the data were processed

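Bulk poly(A) RNA sequencing of 69 libraries was used, 6 of which, p53KO–emiRFP and WT–emiRFP cells sorted at 120 h, were compared. The authors trimmed reads (Trim Galore 0.6.7, per the labels), aligned them to GRCm38.p6 with STAR 2.7.11b and deposited counts of uniquely mapped reads per gene, with the strand setting not given in the sources used here. Purity was not checked after sorting, per the study's methods.

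Size factors (median of ratios, all 69 libraries) scaled the counts, low genes were removed with filterByExpr, and the edgeR 4.0.16 quasi-likelihood test (R 4.3.3) was fitted to the 12 libraries of 120 h, which leaves 8 residual degrees of freedom, or to the 18 emiRFP libraries of 96, 120 and 144 h for changes of the contrast with time. An adjusted p of 0.05 was the threshold. Members and the 39 gene lists were chosen with earlier results of these data known, so lists are given as counts and medians. Some list members are not reported here and were left out of the lists. Genes named are Trp53, the 15 largest gains and 15 largest losses (mean log2 CPM of at least 1, same direction in all 3 same-numbered pairs, predicted and unnamed genes left out), the 8 largest in each direction for the other tests, and list members. Alternatives were TMM scaling, no low-count filter, a minimum of 10 counts (chosen after seeing the data), DESeq2 1.42.0, other sets of libraries in the fit, a minimum fold change, the replicate number as a block and each replicate left out. Same-numbered libraries of both groups deviated together (correlations of 0.113, 0.464 and 0.488 across 14090 genes, which are not independent), so the numbers were taken to pair the samples, which came from separate experiments. On simulated data with 200 genes changed 2-fold, run on 18544 genes, 69.5% of the changed genes were recovered by the main test and 2.11% of the genes it called had not been changed. On 18544, 18865 and 18863 genes the tests of the difference from the neighbours, of 120 against 96 h and of 144 against 120 h recovered 58.5%, 61% and 60%, and 4.1%, 9.63% and 5.51% of their calls had not been changed. The simulation changed 200 genes, while 51.0% of genes passed the main test in the data. It also held no deviation shared by same-numbered libraries, so these shares may differ in the data. Promoter windows were RefSeq sequences on GRCm38.p6.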

Additional observations from a re-analysis of the deposited data

Results flagged for a closer look

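These results were singled out because the p53KO contrast differed from another contrast by an edgeR test of the difference itself, with p values adjusted over all tested genes, and the values are differences of log2 fold changes. The genes named are the largest of those averaging 1 log2 CPM or more, and no explanation is given.

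Between the p53KO contrast and the neighbour contrast (WT–mCherry cells by the genotype of their neighbours) at 120 h, the difference passed the test in 3077 genes upwards and 3183 downwards (968 and 1699 without replicate 1). The p53KO contrast exceeded the neighbour contrast most in Tmem114 (3.31), Msgn1 (2.83), Npbwr1 (2.43), Tbx6 (2.32), Gbp7 (2.30), Adamtsl2 (2.17), Mixl1 (2.17) and Fgf3 (2.17). It lay furthest below it in Ano3 (-6.35), Zfp750 (-5.67), Eda2r (-5.65), Alox5 (-5.27), Svop (-5.24), Inpp5d (-5.18), Dscaml1 (-5.16) and Cubn (-4.91). Gbp7, an interferon-induced GTPase, had 219, 238 and 242 normalized counts in p53KO–emiRFP and 85.2, 73.7 and 82.3 in WT–emiRFP cells, while WT–mCherry cells had 84.5, 74.1 and 89.3 beside p53KO and 140.4, 155 and 127 beside WT cells, so that the contrasts had opposite signs (1.53 and -0.77). Cubn, an endocytic receptor, had 41.9, 69.8 and 19.1 against 757, 1035 and 282 in the emiRFP cells.

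Between 96 and 120 h the p53KO contrast changed in 3933 genes upwards and 3068 downwards. It rose most in Kcnk3 (5.52), Msgn1 (5.49), Npbwr1 (4.78), Tbx6 (4.62), Tll2 (4.51), Aldh1a2 (3.97), Pcdh19 (3.87) and Adamtsl2 (3.80). It fell most in Cldn5 (-3.05), Tmem92 (-2.99), Eif4a3l1 (-2.97), Fam169b (-2.67), Dner (-2.64), Krt42 (-2.62), Ly6a (-2.57) and Phf19 (-2.53). Pcdh19, a protocadherin of paraxial mesoderm, had 1732, 1739 and 2889 against 6605, 5326 and 9363 normalized counts at 96 h and 6584, 7006 and 9178 against 1906, 1530.3 and 1754 at 120 h.

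Between 120 and 144 h the contrast changed in 2427 genes upwards and 1578 downwards (1152 and 461 without replicate 1). It rose most in Fmod (4.94), Cer1 (4.92), Foxd2 (4.42), Cd36 (4.19), Stum (3.77), Mgam (3.72), Wnt5a (3.71) and Foxd2os (3.69). It fell most in Dkk1 (-3.07), Nfam1 (-2.92), Adgrd1 (-2.79), Fgf1 (-2.71), Avpr1b (-2.64), Phlda2 (-2.56), Rnf213 (-2.34) and Ryr3 (-2.21). Fmod, which encodes the matrix protein fibromodulin, passed from -2.83 at 120 h to 2.11 at 144 h, with 601, 368 and 473 against 160.5, 53.3 and 117 normalized counts at 144 h. Cer1 had 449.6, 357 and 368 against 2.80, 10.5 and 6.09 at 144 h, and Phlda2, an imprinted growth inhibitor, passed from 1.54 to -1.02.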

How the results depend on the processing

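TMM scaling and a minimum of 10 counts over the libraries of the fit, added after seeing the data, left the counts of calls over all genes within 1.5 times of those given, and so, for the p53KO contrast at 120 h, did DESeq2 and fits of the 6 compared or of all 69 libraries. The counts of the p53KO contrast ranged from 3529 to 6357 higher and 3411 to 5296 lower over these, the replicate block and the fits without 1 replicate, and with TMM the split changed to 4603 higher and 4840 lower. With no low-count filter edgeR estimated an infinite prior df, which replaces each gene's own spread by a shared value, so its adjusted p values (1.5e-52 for Fos) were too small and say nothing about stability. The minimum of 10 counts gave a prior df of 7.98 against 5.73 with the filter, 5052 genes higher and 4879 lower. Requiring a change of at least 2-fold as well left 989 and 2215. With the replicate number as a block, 6357 genes were higher and 5296 lower, and the difference from the neighbour contrast was positive in 5006 genes. When each replicate was left out in turn, that difference was positive in 968 to 2689 genes and negative in 1699 to 2890, the fewest without replicate 1, and the change from 120 to 144 h was positive in 1152 to 1762 and negative in 461 to 962, again the fewest without replicate 1. Fewer samples enter those fits. No value changed its direction among the calls. Of 232 named genes 201 kept their call at 120 h under every alternative but the fit without a filter. Those that lost it in some fit without 1 replicate are given beside their values, apart from Foxd2 and Foxd2os, with adjusted p values of 0.056 and 0.13 without replicate 1. Those that gained it with the block are also given there, apart from Stum and Fgf1 (adjusted p = 0.039 each), and the block changed no other call of a named gene. Of 390 list medians under alternatives 24 moved by more than the spread between same-numbered pairs. Among 48 named differences between contrasts, Eif4a3l1 did not pass from 96 to 120 h without replicate 1 (-2.31, adjusted p = 0.067). In the fit of all 69 libraries Sox1 did not pass (adjusted p = 0.075), and Fos, Fosb, Tie1 and Wnt8a did (adjusted p = 0.027, 0.025, 0.049 and 0.0086). Erg, Tie1 and Wnt8a passed in the fit of the 6 libraries (0.034, 0.03 and 0.04), Erg with TMM (0.042), Cdh5 without replicate 2 (0.014), and Fgf1 and Wnt8a without replicate 3 (0.049 and 0.029). Counts of list members that changed by over 1.5 times are given beside them. In addition 2 pluripotency genes were higher with the block, the 6 libraries or without replicate 2, 5 notochord genes were higher in the fit of all 69 libraries, and 0 somite genes were lower without replicate 1. Gut endoderm had 1 gene higher and the retinoic acid list 2 lower without replicate 1 or 3. Low counts limit genes such as Ttr, and its floor covers counting error only.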

Other observations

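Genes of the integrated stress response were 10 higher and 3 lower of 18 tested in p53KO–emiRFP cells (median 0.22). The lipoprotein receptor Vldlr had 2825, 2433 and 2945 normalized counts against 1378, 1064 and 1089 in WT–emiRFP cells (1.22), while Atf4, the transcription factor of the response, did not pass the test (0.06, edgeR adjusted p = 0.57) and its target Asns, the asparagine synthetase, fell by 0.46. Of 17 MHC class I and antiviral genes 7 were higher and 4 lower (2 lower without replicate 1 or 3). The class I gene H2-K1 had 2776, 3024 and 2473 against 1265, 1326 and 1076 (1.17, edgeR adjusted p = 8.2e-05), and the ubiquitin-like Isg15 had 82.8, 93.3 and 90.3 against 27.7, 25.2 and 13.9 (2.00), a low level in both.

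Of 21 imprinted genes 7 were higher and 9 lower. H19, a non-coding RNA of the Igf2 locus, had 1688, 1853 and 1872 normalized counts in p53KO–emiRFP and 4325, 5953 and 3341 in WT–emiRFP cells, with 29763, 27599.6 and 35514 in WT–mCherry cells beside p53KO and 34570.2, 27427 and 34133 beside WT cells. Mest, an imprinted hydrolase, had 1628, 1895 and 2045 against 6078, 8760.1 and 5145 in the emiRFP cells and 25054, 22844 and 27178 against 39173, 32785 and 44502 in the WT–mCherry cells. For both genes every library of the emiRFP clones lay below every library of the WT–mCherry clone. Igf2 lay in the opposite order, with 3718, 3656 and 4120.3 against 2260.1, 1773 and 2413 in the emiRFP cells and 1171, 1114 and 1110.0 against 1078, 984 and 913 in the WT–mCherry cells.

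Of 14 immediate early and heat shock genes 3 were lower, Dusp1, Junb and Nr4a1, and 10 with the replicate number as a block, 5 in the fit of the 6 compared libraries and 7 in that of all 69. Fosb, a component of AP-1, had 31.7, 156 and 8.03 normalized counts in p53KO–emiRFP and 25.7, 1743 and 6.47 in WT–emiRFP cells, and Fos had 109, 217 and 60.2 against 135, 1533 and 72.1. Neither passed the edgeR test (adjusted p = 0.17 and 0.15), and both did with the block (adjusted p = 0.00037 and 0.0067). Without replicate 3 the adjusted p of Junb was 0.065. Replicate 2 was the highest for both genes in each group, and without it the p53KO contrast counted 4553 genes higher and 4020 lower. None of the 11 mitochondrially encoded genes passed the edgeR test (median -0.21, and -0.016 without replicate 2), and at an unadjusted p below 0.05 the count was 1, with 0 lower and 0 higher by DESeq2.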
